A study of Mus musculus with 18 samples.

Results

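The genes described here form the route from glucose to lactate: glucose transporters, the enzymes of glycolysis with their isozymes, the monocarboxylate transporters that carry lactate, pyruvate dehydrogenase with its kinases, and the enzymes that build and break down glycogen. The 40 members come from a list of symbols that was drawn up with earlier results of these data known and that uses no threshold on a measured value, and all 40 were found among the 55029 genes of the E. coli and IFN-γ files and the 54232 genes of the IL-4 files. They fall into 16 steps and lie on 16 chromosomes. Glycolysis splits glucose to pyruvate and yields ATP without oxygen, and lactate dehydrogenase turns pyruvate into lactate so that the pathway can go on. Hexokinase, phosphofructokinase and pyruvate kinase catalyse its committed steps, and pyruvate dehydrogenase kinases keep pyruvate out of the mitochondrial cycle. Granulocytes and activated macrophages are known for a high glycolytic rate, and granulocytes store glycogen.

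The study profiled the RNA of eosinophils taken from the peritoneal cavity of Il5-transgenic mice (line NJ.1638, C57BL/6 background), cleared of cells bearing Thy1.2 or B220, and kept unstimulated or given stimuli that stand for type 1 or type 2 surroundings. Each of 6 groups has 3 libraries: unstimulated a to c, heat-inactivated E. coli, IFN-γ at 50 ng/ml, IFN-γ at 50 ng/ml together with E. coli (called "both" or the joint stimulus), unstimulated d to f, and IL-4 at 100 ng/ml. Stimulated cells were kept for 18 h, and the labels give no time for unstimulated ones. All groups, the unstimulated ones included, came from cells that developed under raised IL-5, and the labels name no promoter for the transgene, no age and no sex. The files come in a pair of layouts, so E. coli, IFN-γ and both were compared with unstimulated a to c, and IL-4 with unstimulated d to f.

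Counts on genes ran from 1523808 to 2734041 in the 12 libraries of the first layout and from 3625036 to 6482289 in the 6 libraries of the IL-4 layout. A floor of 3 counts stood at 1.10 to 1.97 CPM (depth-scaled counts, below with edgeR's TMM factors) in the first layout and at 0.463 to 0.828 CPM in the second. In the first layout the highest count of any gene was 4089 or a few more in each library, just under the number of different identifiers that 6 bases allow, so counts near that ceiling understate abundance. In the IL-4 layout the highest counts were 87377 to 191131. Members at or above 50% of the ceiling numbered 2 to 4 in unstimulated libraries, 4 to 7 after E. coli, 7 to 9 after IFN-γ and 9 to 10 after both. Of the members, 9 have near-identical copies elsewhere in the genome (Gapdh 78 of them, Pgk1 and Ldha 4 each, Eno1 3, and Gpi1, Tpi1, Pgam1, Pkm and Ldhb 1 each), and reads from them can be lost or shared.

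Exons of 16 members overlap another gene's exons, for 11 of them a coding gene on the opposite strand, and the files do not say whether strand was counted. The longest of these were 748 bases of Pfkp with Pitrm1, 603 of Pdha1 with Map3k15, 398 of Pgm1 with Itgb3bp and 310 of Gys1 with Ruvbl2, and 741 bases of Gpi1 overlap the opposite-strand lincRNA Gm26762, so these members' levels carry that uncertainty. On the same strand, 1262 bases of Pfkfb2 lie in the coding gene Gm29427, 767 of Pkm in Gm49759 and 341 of Pfkm in Gm26513. Some members stood at very different levels in the pair of layouts: Gapdh averaged 436 ± 54.9 CPM (SD, n = 3) in unstimulated a to c and 4.91 ± 2.53 CPM in d to f, and Pgam1 882 ± 127 and 0.997 ± 0.47 CPM. Others of the members with copies were Pgk1 with 344 ± 31 and 14.9 ± 3.47, Eno1 with 369 ± 35.2 and 53 ± 11.3 and Ldha with 639 ± 81.2 and 496 ± 126 CPM, and Aldoa, with no copy, had 1288 ± 257 and 4329 ± 2326 CPM. Tpi1, Pkm and Gpi1, also with copies, showed no such drop in unscaled counts. A library of a to c held 314 to 393, 2169 to 2946 and 1084 to 1515 of them. The deeper libraries d to f held 845 to 2108, 4913 to 13430 and 1480 to 3671. The part of copies in these gaps was not tested. The labels mention a CEL-Seq library and an RNASeq experiment without naming their samples, so which protocol made the IL-4 files is not known. Apart from the values just given, levels are compared only within a layout. Counts per kilobase suit reads spread along a transcript and plain CPM reads from its end, and both are given for isozymes. The methods describe CEL-Seq2, which reads transcript ends, and the first layout shows the identifier ceiling, so plain CPM is the better guide there. Gapdh and Pgam1 in the IL-4 layout rest on 18 to 37 and 2 to 9 counts a library.

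The eosinophil label was checked against 8 markers. Their summed level was 2451, 3111 and 2546 CPM in unstimulated a to c, 2204, 2009.8 and 2185 after E. coli, 2428, 2155 and 2647 after IFN-γ and 2165, 1932 and 1984 after both, and Ccr3 was the most abundant in every group. It was 2757, 3663 and 2836 CPM in unstimulated d to f and 2685, 2794 and 2664 with IL-4. Of 5 eosinophil markers tested in the first layout, 1 rose (Ear6) and 2 fell (Il5ra and Siglecf) with E. coli, 4 fell with IFN-γ (those 3 and Prg2), and 1 rose (Ear6) and 3 fell (Siglecf, Il5ra and Prg2) with both, with no call for Ccr3. With IL-4, 4 of 8 rose (Ear6, Prg2, Il5ra and Siglecf) and Ccr3 fell by 0.72 ± 0.15. Macrophage markers were also present: their 8 genes summed to 1663, 1782 and 1778 CPM unstimulated, 1673, 1499.6 and 2012 after E. coli, 2314, 2258 and 2465 after IFN-γ and 2092, 1977 and 2452 after both. Adgre1, which mouse eosinophils also express, led that list in the first layout and C1qc in the IL-4 layout, where the sums were 2600.1, 3107 and 3214 CPM unstimulated and 2160.3, 2147 and 2418 with IL-4. Of the 8 macrophage markers 4 rose and 1 fell with IFN-γ, 2 rose with both, 1 fell with E. coli, and 3 fell with IL-4 (Adgre1 by 0.80 ± 0.13, Csf1r by 0.68 ± 0.14 and C1qb by 0.51 ± 0.14). T cell markers summed to at most 8.94 CPM, and the NK cell and mesothelial pairs to at most 1.51 CPM in any library.

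Neutrophil markers, 8 genes led by Retnlg, summed to 559, 688 and 551 CPM unstimulated, 353, 341 and 403 after E. coli, 680.1, 625 and 735 after IFN-γ and 331, 397 and 425 after both, and went from 1995, 1945 and 1676 to 779.6, 809 and 732 CPM with IL-4. Of 3 tested, 1 rose and 1 fell with E. coli, 2 rose with IFN-γ, and 2 rose and 1 fell with both, while 1 of 4 fell with IL-4. Retnlg fell by 1.02 ± 0.12 with E. coli, 0.90 ± 0.12 with both and 1.30 ± 0.11 with IL-4. The marker that rose with E. coli was S100a8, by 3.06 ± 0.42. Elane had no counts with E. coli, Mpo and Elane none with IFN-γ, and Ngp none with both. The 6 mast cell markers summed to 9.69, 8.24 and 7.43 CPM unstimulated, 10.2, 6.69 and 34.6 after E. coli, 30.2, 14.4 and 13.1 after IFN-γ and 36.5, 72.3 and 66.6 after both, and to 8.61, 6.63 and 7.36 and 17.3, 7.98 and 20.7 CPM in unstimulated d to f and with IL-4. They were led by Tpsb2, or by Cma1 with both, and the 2 tested, Cma1 and Tpsb2, rose with both, and Tpsb2 with IFN-γ. Fcer1a had no counts in unstimulated a to c, Mcpt4 and Fcer1a none with IFN-γ, and Mcpt4 none with both. The 4 erythroid markers, led by Hbb-bs, summed to 45.8, 76.7 and 72.3 CPM unstimulated, 60.4, 58.8 and 127 after E. coli, 135, 107 and 53.6 after IFN-γ and 123, 157 and 110.1 after both, and to 105, 99.6 and 93.4 and 74.4, 77.1 and 99.3 CPM in unstimulated d to f and with IL-4. Of the 4, 3 rose with both and 1 fell with IL-4.

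B cell markers moved with the stimuli although B220-bearing cells had been removed. Their 5 genes, led by Ighm, summed to 214, 192 and 117 CPM unstimulated, 39.2, 44.5 and 75.5 after E. coli, 98.5, 60.5 and 58.2 after IFN-γ and 115, 129 and 125 after both. All 5 fell with E. coli, 4 of 5 with IFN-γ, and 5 of 5 had a higher response to E. coli in the presence of IFN-γ than in its absence. With IL-4, 3 of 4 tested rose, and the sum went from 24.4, 23.7 and 43.4 to 63.3, 58.3 and 68.4 CPM. The part of these other cells in the members' results was not tested, and in bulk RNA fewer cells of a type and less RNA per cell cannot be told apart.

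With each of the type 1 stimuli, most steps from glucose uptake to lactate export stood higher than in unstimulated cells, and IFN-γ moved more members and moved them further than E. coli. The low-count filter kept 32 members in the first layout and 31 in the IL-4 layout, and a member counted as called when its p, adjusted over all genes tested, was under 0.05. With E. coli, 15 of 32 tested members (46.9%) rose, against 13.5% of the 9883 genes tested, and 3 fell (Hk3, Pdk2 and Pygl), against 16.7%. With IFN-γ, 26 of 32 rose, against 15.6%, and 1 fell (Pdk2), against 16%. With both, 27 of 32 rose, against 23.9%, and 2 fell (Pdk2 and Pygl), against 25.2%. The latter count was 1 without unstimulated b, without joint library 2 or without joint library 3. Slc16a1, Aldoc and Pdk2 passed the filter only through libraries of groups in which they were high. Of the 29 members with at least 10 counts in every library, 14, 25 and 25 rose with E. coli, IFN-γ and both, against 15.2, 16.2 and 25.3% of 7399 genes. The members' median log2 fold change was 0.33 after E. coli, 1.40 after IFN-γ and 1.66 after both, where the medians over all genes tested were -0.02, -0.03 and -0.04.

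Changes by a factor of 2 or more were reached by 7 members upward and 1 downward with E. coli, by 22 and 1 with IFN-γ, and by 23 and 1 with both, that is 21.88, 68.75 and 71.88% upward and 3.125% downward in each, against 3.54, 5.02 and 9.26% and 6.81, 6.99 and 13.1% of all genes. The 3 comparisons share their unstimulated libraries. In every member called in them, all 3 stimulated libraries lay beyond all 3 unstimulated ones, except for Hk3 with E. coli. Groups were apart in this way in 45.3, 45.7 and 54.1% of all genes tested, called or not. Members took 0.898, 1.01 and 0.955% of a library's counts unstimulated, 1.29, 1.22 and 1.37% after E. coli, 1.86, 2.02 and 2.23% after IFN-γ and 2.4, 2.13 and 2.27% after both. The groups followed each other without overlap in that share, apart from IFN-γ and both. Tested in neither layout were Pfkm, Pfkfb1, Eno2, Eno3, Ldhb and Pdk4. The first layout also left Pfkfb2 and Bpgm untested, and the IL-4 layout Pgam1, Slc16a1 and Pdk2.

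**Figure D1:**
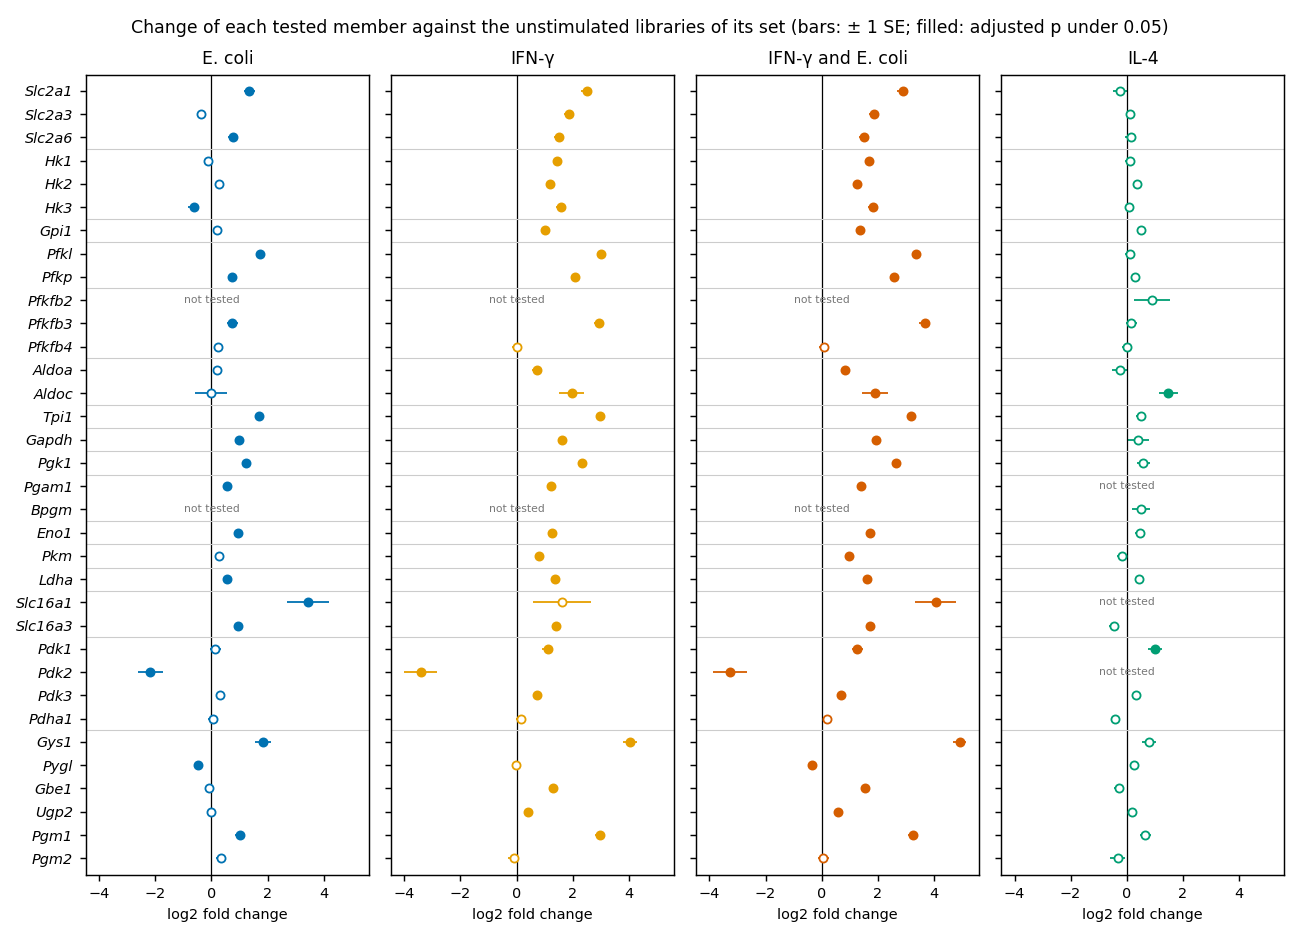
Log2 fold change against the unstimulated libraries of the same layout for each tested member, ordered by step, in a panel for each stimulus, where points are estimates, bars standard errors, and filled points have an adjusted p under 0.05. Called higher are 15, 26 and 27 of 32 members with E. coli, IFN-γ and both, against 13.5, 15.6 and 23.9% of all genes, and 2 of 31 (6.45%) with IL-4, against 5.97% (0 to 13 members with a library left out).

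Glucose uptake was read from 3 transporters. Slc2a1 (ENSMUSG00000028645, chr4:119108711-119137983, forward strand) encodes GLUT1, the transporter of most growing and activated cells. Slc2a1 had 57.4, 85.6 and 76.4 CPM unstimulated, 184, 184 and 186 after E. coli, 336, 378 and 512 after IFN-γ and 546, 409.8 and 651 after both. All 9 stimulated libraries lay above the unstimulated ones, the libraries with IFN-γ lay above those with E. coli alone, and IFN-γ and both overlapped. Slc2a1 rose by 1.35 ± 0.18 after E. coli, 2.50 ± 0.19 after IFN-γ and 2.89 ± 0.19 after both (adjusted p = 1.82e-05, 7.61e-09 and 4.18e-10), as log2 fold change ± standard error, which is 2.55-, 5.64- and 7.39-fold. Slc2a3 encodes GLUT3, a transporter of high affinity. Slc2a3 had 193, 193 and 211 CPM unstimulated, 169, 146 and 151 after E. coli, 504, 782 and 899 after IFN-γ and 744, 653 and 774 after both. Its E. coli libraries were the lowest of the 12 and its libraries with IFN-γ the highest. Slc2a3 rose by 1.87 ± 0.16 with IFN-γ and 1.86 ± 0.16 with both (adjusted p = 5.35e-08 and 2.24e-08), and its difference of -0.36 ± 0.16 with E. coli (adjusted p = 0.102) missed the threshold.

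Slc2a6 encodes GLUT6, a transporter found mainly in leukocytes and inside cells. Slc2a6 had 25, 26.6 and 29.7 CPM unstimulated, 52.6, 40.5 and 45.4 after E. coli, 92.4, 82 and 58.9 after IFN-γ and 86.9, 63 and 82.4 after both. The 3 stimulated groups lay above the unstimulated one, and IFN-γ and both lay above E. coli. Slc2a6 rose by 0.76 ± 0.19 after E. coli, 1.53 ± 0.18 after IFN-γ and 1.504 ± 0.19 after both (adjusted p = 0.00423, 3.6e-06 and 2.12e-06). Per kilobase of exon, Slc2a3 led in unstimulated a to c with 27.5 CPM per kb against 20.9 for Slc2a1, and Slc2a1 led with E. coli at 52.7 against 21.4. CPM gave the same order in those groups but not with IFN-γ or both, where Slc2a3 led by CPM and Slc2a1 per kilobase. Slc2a6 was the lowest of the 3 on both scales in all 6 groups.

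Hexokinases trap glucose in the cell as glucose 6-phosphate. Hk2, an inducible isozyme that binds mitochondria, was the most abundant in every group by CPM and per kilobase. Hk2 had 322, 312 and 314 CPM unstimulated, 354, 391 and 402 after E. coli, 545, 772 and 833 after IFN-γ and 696, 758 and 838 after both. Its E. coli libraries lay just above the unstimulated ones and its libraries with IFN-γ higher still. Hk2 rose by 1.18 ± 0.14 with IFN-γ and 1.27 ± 0.14 with both (adjusted p = 2.17e-06 and 3.52e-07), while the difference was 0.27 ± 0.14 with E. coli (adjusted p = 0.137). Hk1 is the isozyme most tissues express. Hk1 had 142, 148 and 140.4 CPM unstimulated, 134, 127 and 131 after E. coli, 349.8, 388 and 435 after IFN-γ and 439, 442 and 509.8 after both. Libraries with IFN-γ did not overlap the others, and the E. coli libraries were the lowest. Hk1 rose by 1.45 ± 0.11 with IFN-γ and 1.69 ± 0.11 with both (adjusted p = 1.03e-08 and 4.68e-10), with -0.13 ± 0.11 with E. coli (adjusted p = 0.416).

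Hk3, an isozyme typical of myeloid cells, went down with E. coli and up with IFN-γ. Hk3 had 68.2, 53.9 and 69.4 CPM unstimulated, 32.2, 33.8 and 61.7 after E. coli, 179, 198 and 204 after IFN-γ and 204, 216 and 265 after both. E. coli library 3 lay among the unstimulated libraries and the other 2 below them, and all libraries with IFN-γ lay above. Hk3 fell by 0.62 ± 0.20 with E. coli (adjusted p = 0.0218), and this call was lost without unstimulated a (-0.57), unstimulated c (-0.56), E. coli 1 (-0.46) or E. coli 2 (-0.46). Hk3 rose by 1.59 ± 0.18 with IFN-γ and 1.82 ± 0.18 with both (adjusted p = 1.87e-06 and 1.23e-07).

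Gpi1 converts glucose 6-phosphate to fructose 6-phosphate. Gpi1 had 564, 687 and 584 CPM unstimulated, 716, 649 and 742 after E. coli, 1092, 1197 and 1424 after IFN-γ and 1813, 1437 and 1490.4 after both. The E. coli and unstimulated libraries overlapped, and those with IFN-γ lay above both. Gpi1 rose by 1.02 ± 0.13 with IFN-γ and 1.37 ± 0.13 with both (adjusted p = 7.43e-06 and 8.05e-08), with 0.20 ± 0.13 with E. coli (adjusted p = 0.266). Phosphofructokinase then makes fructose 1,6-bisphosphate, and its liver (Pfkl) and platelet (Pfkp) isozymes were both present, while the muscle isozyme Pfkm had at most 2 counts in a library of the first layout and 8 in the IL-4 layout.

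Pfkl (ENSMUSG00000020277, chr10:77986947-78010083, reverse strand) had the smallest p of any member with both. Pfkl had 28.3, 25.4 and 31.4 CPM unstimulated, 88.9, 90.3 and 106 after E. coli, 218, 227 and 252 after IFN-γ and 285, 288 and 305 after both. The 4 groups followed each other without overlap, from unstimulated through E. coli and IFN-γ to both. Pfkl rose by 1.73 ± 0.13 after E. coli, 3.02 ± 0.13 after IFN-γ and 3.35 ± 0.13 after both (adjusted p = 1.4e-08, 5.41e-12 and 4.92e-13), or 3.31-, 8.11- and 10.2-fold. Pfkp had 90.2, 95.7 and 79.7 CPM unstimulated, 149.7, 149 and 145 after E. coli, 274, 417 and 444 after IFN-γ and 546, 482 and 559.9 after both. Its groups did not overlap either and came in the same order. Pfkp rose by 0.75 ± 0.15 after E. coli, 2.099 ± 0.15 after IFN-γ and 2.58 ± 0.15 after both (adjusted p = 0.00104, 5.71e-09 and 1.18e-10). In unstimulated a to c Pfkp led Pfkl on both scales (6.61 and 4.25 CPM per kb), and in the other groups the order depended on the scale.

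The Pfkfb enzymes make and remove fructose 2,6-bisphosphate, the strongest activator of phosphofructokinase, and Pfkfb3 is the isozyme most biased towards making it. Pfkfb3 had 37.3, 45 and 43.4 CPM unstimulated, 66.5, 64.9 and 79.5 after E. coli, 217, 336 and 407 after IFN-γ and 516, 474 and 597 after both. Pfkfb3 (ENSMUSG00000026773, chr2:11471433-11554077, reverse strand) had 4 groups without overlap, in the order unstimulated, E. coli, IFN-γ, both. Pfkfb3 rose by 0.75 ± 0.20 after E. coli, 2.94 ± 0.19 after IFN-γ and 3.67 ± 0.19 after both (adjusted p = 0.00803, 1.23e-09 and 2.44e-11), or 1.68-, 7.67- and 12.7-fold, and its call with E. coli was lost without unstimulated a (0.67). Pfkfb4 ran from 32.0 to 45.7 CPM over the 12 libraries, with overlapping groups and differences of 0.22 ± 0.15, 0.01 ± 0.16 and 0.08 ± 0.16. Pfkfb3 exceeded Pfkfb4 with all stimuli on both scales, reaching 70.0 against 8.13 CPM per kb with both, and in unstimulated a to c the scales disagreed. Pfkfb1 and Pfkfb2 had at most 6 and 8 counts in these libraries, and Pfkfb2 was 6.33-fold lower with E. coli by its summed counts of 3 against 17 (95% counting interval 1.83 to 33.7). For Pfkfb1 the intervals held 1, with ratios of 0.488 with E. coli (0.148 to 1.44) and 0.387 with both (0.0693 to 1.46).

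Aldolase splits fructose 1,6-bisphosphate into a pair of triose phosphates. Aldoa, the main isozyme, stood far above Aldoc on both scales. Aldoa had 1074, 1572 and 1217 CPM unstimulated, 1493, 1206 and 1713 after E. coli, 2088, 1881 and 2359 after IFN-γ and 2539, 2045 and 2270.5 after both. E. coli and unstimulated libraries overlapped, and those with IFN-γ lay above both. Aldoa rose by 0.71 ± 0.15 with IFN-γ and 0.83 ± 0.16 with both (adjusted p = 0.00162 and 0.000218), with 0.19 ± 0.15 with E. coli (adjusted p = 0.378). These counts reached 91.1% of the ceiling, and corrected values are given further on.

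Aldoc, the brain-type isozyme, was scarce. Aldoc had 1.49, 4.44 and 2.06 CPM unstimulated, 2.45, 2.34 and 2.47 after E. coli, 5.04, 13.8 and 9.81 after IFN-γ and 9.49, 7.12 and 11.2 after both. Libraries with IFN-γ lay above all others, and E. coli and unstimulated libraries overlapped. Aldoc passed the filter only through libraries with IFN-γ, so its calls are a description: it rose by 1.96 ± 0.45 with IFN-γ and 1.89 ± 0.46 with both, with -0.01 ± 0.56 with E. coli. Tpi1 interconverts the triose phosphates. Tpi1 had 131, 199 and 162 CPM unstimulated, 489.9, 496 and 589 after E. coli, 1139, 1276 and 1418 after IFN-γ and 1530.1, 1393 and 1555 after both. Every E. coli library lay above every unstimulated one, and every library with IFN-γ above those. Tpi1 rose by 1.69 ± 0.14 after E. coli, 2.97 ± 0.15 after IFN-γ and 3.19 ± 0.15 after both (adjusted p = 6.55e-08, 2.89e-11 and 5.25e-12), or 3.22-, 7.83- and 9.15-fold.

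Gapdh and Pgk1 carry the pathway through its first ATP yield. Gapdh had 389, 496 and 421 CPM unstimulated, 818, 796 and 952 after E. coli, 1235, 1373 and 1445 after IFN-γ and 1811, 1574 and 1636 after both. Gapdh kept 4 groups apart, rising from unstimulated through E. coli and IFN-γ to both. Gapdh rose by 0.98 ± 0.12 after E. coli, 1.63 ± 0.12 after IFN-γ and 1.94 ± 0.13 after both (adjusted p = 7.06e-06, 1.01e-08 and 3.85e-10). Pgk1 had 308, 361 and 362 CPM unstimulated, 771, 710.2 and 915 after E. coli, 1561, 1645 and 2034 after IFN-γ and 2247, 1952 and 2222 after both. For Pgk1, unstimulated, E. coli and IFN-γ libraries were likewise apart, and IFN-γ overlapped both. Pgk1 rose by 1.22 ± 0.13 after E. coli, 2.35 ± 0.14 after IFN-γ and 2.64 ± 0.14 after both (adjusted p = 1.44e-06, 2.73e-10 and 2.44e-11), or 2.33-, 5.09- and 6.23-fold.

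Pgam1 moves the phosphate of 3-phosphoglycerate. Pgam1 had 762, 1015 and 868 CPM unstimulated, 1293, 1162 and 1383 after E. coli, 1938, 1919 and 2371 after IFN-γ and 2504, 2091 and 2391 after both. E. coli libraries lay above unstimulated ones and below those with IFN-γ. Pgam1 rose by 0.54 ± 0.13 after E. coli, 1.24 ± 0.13 after IFN-γ and 1.40 ± 0.13 after both (adjusted p = 0.00435, 1e-06 and 7.86e-08). Bpgm, which makes the 2,3-bisphosphoglycerate of red cells, had at most 13 counts in these libraries. Its summed counts were 27 unstimulated and 3 with both, 6.34-fold lower (95% counting interval 1.95 to 32.7). In the first layout Pgam1 exceeded Bpgm on both scales.

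Enolase makes phosphoenolpyruvate. Eno1 had 332, 402 and 374 CPM unstimulated, 704, 662 and 757 after E. coli, 832, 936 and 893 after IFN-γ and 1328, 1177 and 1177 after both. The 4 groups did not overlap and again ran from unstimulated through E. coli and IFN-γ to both. Eno1 rose by 0.94 ± 0.11 after E. coli, 1.27 ± 0.11 after IFN-γ and 1.73 ± 0.11 after both (adjusted p = 3.8e-06, 8.43e-08 and 4.87e-10). Eno2 and Eno3, the neuronal and muscle isozymes, had at most 6 and 8 counts. The summed counts of Eno2 were 6 unstimulated and 14 with both, 3.31-fold higher (95% counting interval 1.20 to 10.5). Intervals held 1 for Eno2 with E. coli (ratio 1.34, 0.427 to 4.58) and for Eno3 with both (0.645, 0.176 to 2.01). Eno1 led this step in all groups on both scales.

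Pkm encodes pyruvate kinase, which makes pyruvate and ATP. Pkm had 1098, 1375 and 1189.8 CPM unstimulated, 1473, 1258 and 1678 after E. coli, 2042, 1925 and 2402 after IFN-γ and 2652, 2082 and 2456 after both. Unstimulated and E. coli libraries overlapped, and those with IFN-γ lay above. Pkm rose by 0.80 ± 0.14 with IFN-γ and 0.97 ± 0.14 with both (adjusted p = 0.00021 and 1.24e-05), with 0.27 ± 0.14 with E. coli (adjusted p = 0.155) before any correction for the ceiling. Ldha turns pyruvate into lactate. Ldha had 601, 733 and 585 CPM unstimulated, 918, 852 and 1016 after E. coli, 1538, 1583 and 1882 after IFN-γ and 2045, 1797 and 2054 after both. E. coli libraries lay between the unstimulated ones and those with IFN-γ, with no overlap. Ldha rose by 0.54 ± 0.13 after E. coli, 1.38 ± 0.13 after IFN-γ and 1.62 ± 0.13 after both (adjusted p = 0.00284, 1.32e-07 and 6.01e-09). Ldhb, whose enzyme favours the reverse reaction, had at most 3 counts in a library of this layout and none with E. coli or both.

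Lactate leaves through monocarboxylate transporters. Slc16a3 encodes MCT4, the exporter of strongly glycolytic cells, and was the leading transporter in all groups on both scales. Slc16a3 had 403, 530.5 and 518 CPM unstimulated, 909.7, 862 and 994 after E. coli, 1239.8, 1252 and 1355 after IFN-γ and 1709.8, 1494 and 1563 after both. Its 4 groups followed each other without overlap. Slc16a3 rose by 0.93 ± 0.12 after E. coli, 1.41 ± 0.12 after IFN-γ and 1.72 ± 0.12 after both (adjusted p = 1.03e-05, 6.06e-08 and 1.62e-09).

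Slc16a1 (ENSMUSG00000032902, chr3:104638668-104658462, forward strand) encodes MCT1, which carries lactate either way. It was scarce, and it was the only member that rose with E. coli and with both but was not called with IFN-γ. Its counts were 1, 0 and 2 unstimulated, 13, 11 and 16 after E. coli, 5, 2 and 1 after IFN-γ, and 4, 15 and 21 after both. E. coli and joint libraries all lay above the unstimulated ones, and the IFN-γ libraries overlapped them. Slc16a1 passed the filter only through E. coli and joint libraries, so its calls are a description as well. Depth-scaled summed counts were 11.9-fold higher with E. coli (95% counting interval 3.80 to 60.3) and 18.9-fold higher with both (6.02 to 95.6). With IFN-γ the ratio was 3.38 (0.812 to 19.8). With IFN-γ Slc16a1 was lower than with E. coli by 1.80 ± 0.63, a call lost without E. coli 1 (-1.82), E. coli 3 (-1.51), IFN-γ 2 (-1.56) or IFN-γ 3 (-1.51).

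Pyruvate dehydrogenase feeds pyruvate into the mitochondrial cycle, and its kinases switch it off. Pdha1, its catalytic subunit, ran from 70.8 to 111 CPM over the 12 libraries, with overlapping groups and differences of 0.04 ± 0.15, 0.14 ± 0.16 and 0.21 ± 0.16 with E. coli, IFN-γ and both. Pdk3 was the most abundant kinase in all groups on both scales. Pdk3 had 81.6, 91.3 and 82.2 CPM unstimulated, 115, 107 and 93.3 after E. coli, 131, 134 and 152 after IFN-γ and 134, 125 and 150.4 after both. Its stimulated libraries all lay above the unstimulated ones. Pdk3 rose by 0.71 ± 0.12 with IFN-γ and 0.69 ± 0.12 with both (adjusted p = 0.000154 and 0.000116), with 0.31 ± 0.12 with E. coli (adjusted p = 0.053). Pdk1, the kinase induced by low oxygen, followed IFN-γ. Pdk1 had 41.4, 27.3 and 39.6 CPM unstimulated, 38.3, 42.5 and 41 after E. coli, 56, 96.4 and 85.7 after IFN-γ and 84, 101 and 81.1 after both. E. coli and unstimulated libraries overlapped, and those with IFN-γ lay above both. Pdk1 rose by 1.11 ± 0.19 with IFN-γ and 1.27 ± 0.19 with both (adjusted p = 0.000168 and 1.83e-05), with 0.14 ± 0.19 with E. coli (adjusted p = 0.625).

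Pdk2 went down with every stimulus of this layout. Pdk2 had 12.3, 8.24 and 5.37 CPM unstimulated, 2.45, 1.34 and 1.97 after E. coli, 1.12, 0.513 and 0.654 after IFN-γ and 0.73, 1.64 and 0 after both. No stimulated library reached the lowest unstimulated one. Pdk2 fell by 2.18 ± 0.45 with E. coli. In the IFN-γ and joint libraries 4 counts a group stood against 59 unstimulated, 11.6-fold lower (95% counting interval 4.31 to 44.1) and 10.4-fold lower (3.85 to 39.4). Pdk2 passed the filter only through its unstimulated libraries, so these calls are a description too. Pdk4 had no count in these 12 libraries and 2 counts in the IL-4 layout.

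The glycogen genes were read last. Glycogen synthase, Gys1 (ENSMUSG00000003865, chr7:45434844-45456619, forward strand), had the largest change of any member with IFN-γ and with both. Gys1 had 8.57, 7.61 and 16.1 CPM unstimulated, 39.6, 41.1 and 37.5 after E. coli, 126, 202 and 218 after IFN-γ and 395, 324 and 289 after both. Its 4 groups did not overlap. Gys1 rose by 1.84 ± 0.27 after E. coli, 4.04 ± 0.24 after IFN-γ and 4.92 ± 0.24 after both (adjusted p = 4.18e-05, 4.17e-10 and 8.62e-12), or 3.57-, 16.4- and 30.3-fold, with the opposite-strand overlap given above. Phosphoglucomutase, Pgm1, links glucose 6-phosphate with glycogen. Pgm1 had 39.9, 39.9 and 42.5 CPM unstimulated, 75.5, 83.3 and 88.4 after E. coli, 246, 325 and 388 after IFN-γ and 353, 369.8 and 437 after both. E. coli libraries lay between the unstimulated ones and those with IFN-γ. Pgm1 rose by 1.01 ± 0.16 after E. coli, 2.97 ± 0.16 after IFN-γ and 3.24 ± 0.16 after both (adjusted p = 0.000108, 6.79e-11 and 9.24e-12), or 2.01-, 7.81- and 9.45-fold.

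Gbe1 adds the branches of glycogen. Gbe1 had 80.1, 66.5 and 85.9 CPM unstimulated, 64.9, 66.5 and 88.4 after E. coli, 168, 210.2 and 199 after IFN-γ and 245, 225 and 208 after both. E. coli and unstimulated libraries overlapped and those with IFN-γ lay above. Gbe1 rose by 1.30 ± 0.14 with IFN-γ and 1.53 ± 0.14 with both (adjusted p = 8.76e-07 and 4.15e-08), with -0.10 ± 0.14 with E. coli (adjusted p = 0.645). Ugp2 makes the UDP-glucose that glycogen synthase uses, and ran from 115 to 123 CPM over the unstimulated and E. coli libraries and from 138 to 190.3 in those with IFN-γ. Ugp2 rose by 0.42 ± 0.12 with IFN-γ and 0.58 ± 0.12 with both (adjusted p = 0.0121 and 0.00051), and the IFN-γ call was lost without IFN-γ 3 (0.29). Pgm2, a related mutase, ran from 14.8 to 22.4 CPM and was called in no comparison.

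Pygl, the liver-type phosphorylase that frees glucose from glycogen, was the leading glycogen gene unstimulated, with E. coli and with IFN-γ on both scales. Pygl had 951, 1151 and 912 CPM unstimulated, 776, 683 and 722 after E. coli, 943, 932 and 1103 after IFN-γ and 861, 729 and 795 after both. E. coli and joint libraries all lay below the unstimulated ones, and IFN-γ libraries overlapped them. Pygl fell by 0.47 ± 0.12 with E. coli and 0.34 ± 0.12 with both (adjusted p = 0.00586 and 0.0255), with -0.02 ± 0.12 with IFN-γ (adjusted p = 0.932). Its call with both was lost without unstimulated b (-0.21), joint library 2 (-0.27) or joint library 3 (-0.32). With both, Pgm1 led per kilobase (132 against 115 CPM per kb for Pygl) while Pygl still led by CPM.

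**Figure D2:**
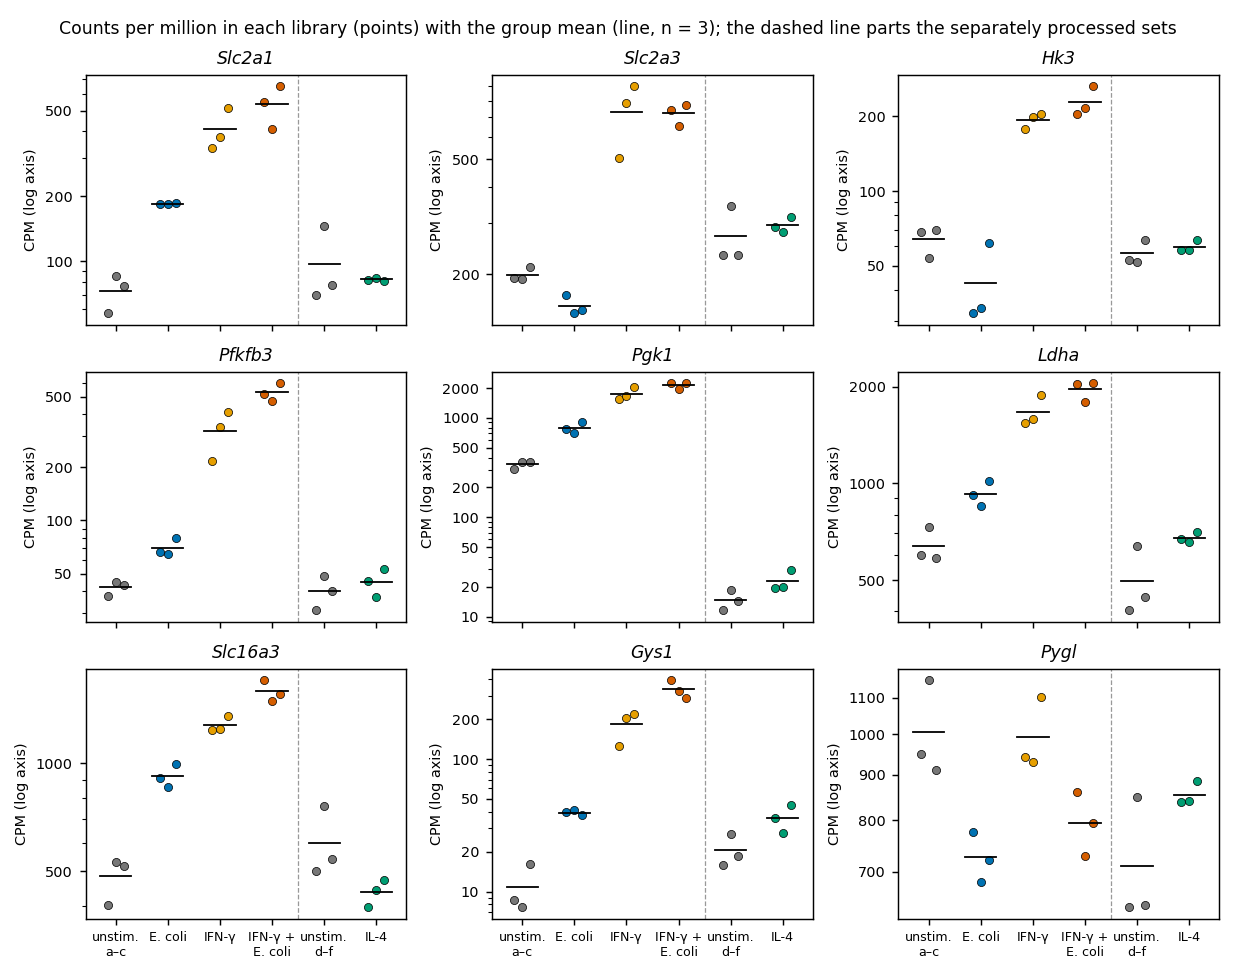
CPM on a log axis in each of the 18 libraries for 9 members (points, with the mean of 3 as a bar), the dashed line parting the first layout from the IL-4 layout. Gys1, Pfkfb3 and Pgk1 climb from unstimulated through E. coli to IFN-γ, Hk3 and Slc2a3 have their lowest mean with E. coli in the first layout, and Pygl stays within 682.8 to 1151 CPM there.

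Because 11 members reached 50% of the identifier ceiling in some library, their counts were also corrected for identifiers used more than once. The correction added a median of 0.29, 0.48 and 0.51 to the log2 fold changes of those 11 with E. coli, IFN-γ and both, and 0.00, 0.05 and 0.06 to the other 21. Members higher after it numbered 17, 26 and 27, against 14, 15.9 and 24.2% of 9858 genes. Pgk1 with both went from 2.64 to 3.57 ± 0.15, Pgam1 from 1.40 to 2.30 ± 0.13 and Pkm from 0.97 to 1.68 ± 0.11. Aldoa went from 0.83 to 1.34 ± 0.13 and Tpi1 from 3.19 to 3.71 ± 0.16. With E. coli, Pkm and Aldoa, not called on deposited counts, rose by 0.82 ± 0.10 and 0.69 ± 0.13 after correction (adjusted p = 8.42e-06 and 0.000536). Pygl, also near the ceiling, fell by 0.59 ± 0.11 with both after correction. Before correction most of these changes were smaller in size.

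**Figure D3:**
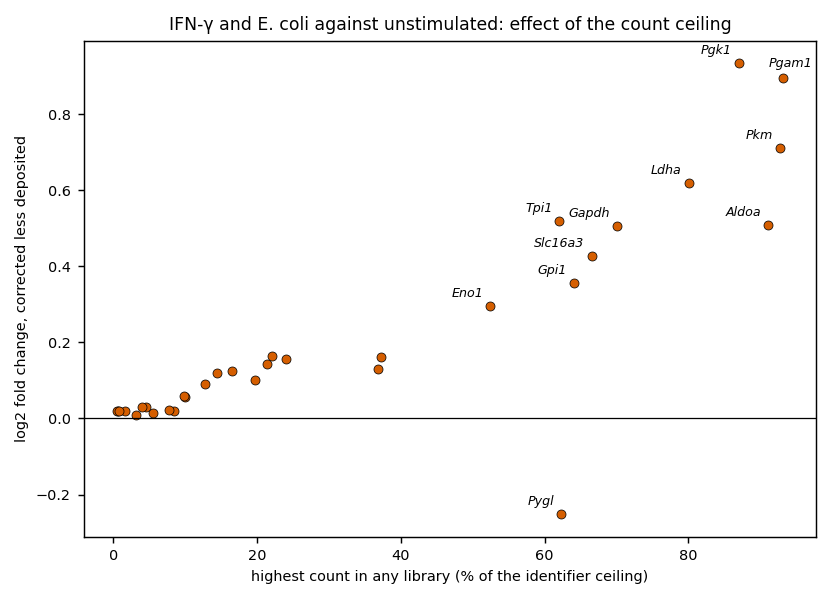
Highest count of each tested member as a percentage of the identifier ceiling (x) against how much the correction changes its log2 fold change with both (y), each point a member. Members below 50% of the ceiling move by at most 0.16, and Pgk1, at 87.0%, moves most, by 0.93.

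IFN-γ and E. coli were then compared directly. With IFN-γ, 27 of 32 members were higher than with E. coli, against 14.1% of all genes tested, and 1 was lower (Slc16a1), against 11.5%, and by DESeq2 27 were higher and 0 lower, with 1 lower at an unadjusted p under 0.05. The members' median was 0.83, against -0.02 over all genes. The widest gaps were in Slc2a3 (2.23 ± 0.16, adjusted p = 4.75e-09), Hk3 (2.21 ± 0.19, adjusted p = 3.42e-08), Gys1 (2.20 ± 0.20, adjusted p = 8.57e-08) and Pfkfb3 (2.19 ± 0.18, adjusted p = 2.23e-08). The 12 members called higher with IFN-γ and not with E. coli were all among the 27. Some of the smaller calls hung on single libraries: Eno1 (0.33 ± 0.11) was lost without E. coli 1 (0.32), E. coli 2 (0.28), IFN-γ 2 (0.30) or IFN-γ 3 (0.32). Without E. coli 2, Aldoa (0.39) and Pkm (0.43) were lost, and without E. coli 3, Pdk3 (0.32). Without IFN-γ 3, the calls of Aldoa (0.43), Pkm (0.43), Pdk3 (0.33), Ugp2 (0.28) and Pygl (0.37) were lost.

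With both, 26 of 32 members were higher than with E. coli alone, against 17.5% of all genes, and 0 were lower by edgeR (0 at an unadjusted p under 0.05 and 0 by DESeq2), against 15.3%. The median was 1.04, against -0.02. Gys1 (3.08 ± 0.20, adjusted p = 8.34e-10), Pfkfb3 (2.92 ± 0.18, adjusted p = 5.36e-10), Hk3 (2.45 ± 0.19, adjusted p = 8.32e-09) and Pgm1 (2.23 ± 0.15, adjusted p = 1.02e-09) led. Pdk3, the smallest call at 0.37 ± 0.12, was lost without E. coli 2 (0.38), E. coli 3 (0.30) or joint library 3 (0.29).

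Adding E. coli to IFN-γ moved fewer members than adding IFN-γ to E. coli. With both, 6 of 32 (18.75%) were higher than with IFN-γ alone, against 6.25% of all genes, and 0 were lower by edgeR (1 at an unadjusted p under 0.05, 0 by DESeq2), against 5.98%. The median was 0.23, against 0.01. Gys1 rose by 0.88 ± 0.18 (adjusted p = 0.00254) and Pfkfb3 by 0.73 ± 0.16 (adjusted p = 0.00618), and each kept its call in every leave-out. Eno1 rose by 0.47 ± 0.11 (adjusted p = 0.00797), lost without IFN-γ 1 (0.42). Pfkp rose by 0.48 ± 0.14 (adjusted p = 0.0294), lost without IFN-γ 1 (0.29), joint library 1 (0.46) or joint library 3 (0.43). Slc16a1, with the limit given above, was higher by 2.43 ± 0.62, a call lost without IFN-γ 2 (2.18), IFN-γ 3 (2.14) or joint library 3 (1.90). Pfkl rose by 0.33 ± 0.11 (adjusted p = 0.0492), lost without IFN-γ 1 (0.28), IFN-γ 2 (0.30) and joint libraries 1 (0.35), 2 (0.34) or 3 (0.29), and under DESeq2 (0.34). The count was 3 without IFN-γ 1 or joint library 3. A block for replicate numbers, which were not taken as pairs, gave more members higher and 1 lower, as given with the processing below. After the ceiling correction 10 were higher, against 6.56% of all genes, adding Slc16a3, Gpi1, Gapdh and Pgk1, and Pygl fell by 0.44 ± 0.11 (adjusted p = 0.0135).

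The interaction asks whether E. coli changed a member by a different amount with IFN-γ than without it. It was below 0 for 6 of 32 members, against 2.04% of all genes, and above 0 for 0 by edgeR (2 at an unadjusted p under 0.05, 0 by DESeq2), against 2.58%, with a median of -0.19 against 0.00. Tpi1 rose by 1.69 ± 0.14 with E. coli alone and differed by 0.22 ± 0.13 when E. coli was added to IFN-γ, an interaction of -1.46 ± 0.20 (adjusted p = 0.000248). For Pfkl the interaction was -1.40 ± 0.17 (adjusted p = 8.93e-05) and for Pgk1 -0.92 ± 0.19 (adjusted p = 0.00668), and these 3 kept their calls in every leave-out. Slc2a1 (-0.96 ± 0.25, adjusted p = 0.0304), Gapdh (-0.67 ± 0.17, adjusted p = 0.0293) and Slc16a3 (-0.62 ± 0.17, adjusted p = 0.0397) did not.

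Slc16a3 lost its interaction call without unstimulated a (-0.51), E. coli 1 (-0.64), 2 (-0.68) or 3 (-0.58), IFN-γ 1 (-0.66), 2 (-0.67) or 3 (-0.60), or joint library 2 (-0.59). Gapdh lost its call without unstimulated a (-0.60) or c (-0.65), E. coli 1 (-0.71) or 3 (-0.59), IFN-γ 2 (-0.69) or 3 (-0.64), or joint library 2 (-0.64). Slc2a1 lost its call without unstimulated a (-0.81) or c (-1.01), E. coli 1 (-0.98) or 2 (-0.97), IFN-γ 3 (-0.79), or joint library 2 (-0.81). The count was 3 without unstimulated a, E. coli 1 or joint library 2, and without E. coli 3 1 member was above 0. Corrected for the ceiling, 10 members were below 0, against 2.41% of all genes, adding Pgam1 (-0.86 ± 0.17), Aldoa (-0.68 ± 0.19), Pkm (-0.61 ± 0.15) and Eno1 (-0.59 ± 0.15), and Tpi1 stood at -1.62 ± 0.20 and Pfkl at -1.40 ± 0.17. B cell markers, as given above, had interactions of the opposite sign.

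With IL-4 few members were called. Of 31 tested 2 rose (11 at an unadjusted p under 0.05, 6 by DESeq2), against 5.97% of the 10556 genes tested, and 0 fell by edgeR (2 at an unadjusted p under 0.05, 0 by DESeq2), against 4.35%. The median was 0.27, against 0.00 over all genes. In 15 of the 31 (48.4%) all IL-4 libraries lay on the same side of all unstimulated ones, as in 31.3% of all genes. Aldoc had 5.28, 7.79 and 10.4 CPM unstimulated and 19.97, 14.5 and 32.9 with IL-4. Pdk1 had 10.8, 14.9 and 8.49 CPM unstimulated and 28.7, 19.6 and 21.3 with IL-4. In both genes all 3 IL-4 libraries lay above all 3 unstimulated ones. Aldoc rose by 1.48 ± 0.34 (adjusted p = 0.0199), lost without IL-4 1 (1.57) or IL-4 3 (1.10). Pdk1 rose by 1.01 ± 0.25 (adjusted p = 0.0288), lost without unstimulated d (0.97) or f (0.825), IL-4 1 (0.84), 2 (1.12) or 3 (1.06). The number of members higher was 13 without unstimulated e, 1 without d, f or IL-4 2, and 0 without IL-4 1 or IL-4 3, and 1 member was lower without d or e. Over all genes, 312 of 10833, 311 of 10815 and 318 of 10867 were higher without IL-4 1, 2 and 3. Without d, e and f these were 717 of 10847, 812 of 10893 and 472 of 10840, against 630 of 10556 with every library.

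Unstimulated library e stood apart from d and f over all genes: the chi-square per degree of freedom of depth-scaled counts was 22.0 to 23.7 for its 2 pairs and 1.64 to 7.86 for the other 16 pairs within groups. Members took 0.83, 1.34 and 0.842% of counts in libraries d, e and f, and 1, 1.04 and 1.1% with IL-4. Aldoa had 3225, 7001 and 2761 CPM unstimulated and 3380.1, 3775 and 3826 with IL-4. Slc2a1 had 69.4, 145 and 77.4 CPM unstimulated and 82, 83.7 and 81.1 with IL-4. In both, library e was the highest of the 6 and the other 5 lay close together. Slc2a3 had 234, 345 and 233 CPM unstimulated and 291, 279.6 and 316 with IL-4. Hk2 had 349, 327 and 384 CPM unstimulated and 467, 451 and 445 with IL-4. Library e was again the highest for Slc2a3, and for Hk2 all IL-4 libraries lay above all unstimulated ones, a difference of 0.36 ± 0.11 (adjusted p = 0.067).

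Ldha had 404, 639 and 445 CPM unstimulated and 671, 655 and 708 with IL-4. Slc16a3 had 499.6, 758 and 542 CPM unstimulated and 397, 444 and 473 with IL-4. Pygl had 639, 849 and 642 CPM unstimulated and 838, 841 and 885 with IL-4. IL-4 libraries lay above all unstimulated ones for Ldha and below them for Slc16a3, and library e lay among the IL-4 libraries for Pygl. The differences were 0.45 ± 0.16 (adjusted p = 0.115), -0.46 ± 0.16 (adjusted p = 0.108) and 0.27 ± 0.13 (adjusted p = 0.239). Gys1 had 15.8, 27.2 and 18.7 CPM unstimulated and 35.8, 27.7 and 44.8 with IL-4. Its groups did not overlap, with 0.79 ± 0.24 (adjusted p = 0.0646).

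Without library e, 13 members were higher and 1 lower, while all genes gave 812 higher and 582 lower of 10893 tested. Higher were Gys1 by 1.04 ± 0.22 (adjusted p = 0.00549), Pgm1 by 0.88 ± 0.15 (adjusted p = 0.000982), Gpi1 by 0.73 ± 0.09 (adjusted p = 0.000125), Tpi1 by 0.67 ± 0.11 (adjusted p = 0.00105) and Ldha by 0.67 ± 0.10 (adjusted p = 0.00026). Pygl, Eno1, Pgk1, Pfkp, Slc2a3, Aldoa, Aldoc and Pdk1 were the other 8, and Gbe1 fell by 0.42 ± 0.13 (adjusted p = 0.0428). Whether library e or the other pair stands for unstimulated cells cannot be told from 3 libraries. Ldhb, untested, had 1 count over the unstimulated libraries and 13 with IL-4, a ratio of 12.8 (95% counting interval 1.93 to 545). Bpgm exceeded Pgam1 on both scales in this layout, where Pgam1 rests on 2 to 9 counts.

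Genes around the pathway were read from further lists, beside the shares over all genes given above (13.5, 15.6 and 23.9% higher and 16.7, 16 and 25.2% lower with E. coli, IFN-γ and both). Of 10 tested regulators of glycolysis genes 6, 7 and 7 rose in these comparisons (60, 70 and 70%), or 5, 5 and 7 by DESeq2, and none was called lower (0 at an unadjusted p under 0.05 by edgeR and 0 by DESeq2 in each), with medians of 0.60, 0.61 and 0.78. Egln3, an oxygen-sensing hydroxylase that marks Hif1a for breakdown and is itself a Hif1a target, rose by 2.71 ± 0.16, 4.53 ± 0.16 and 4.99 ± 0.16, and its relative Egln1 by 0.92 ± 0.17, 2.61 ± 0.17 and 3.02 ± 0.17. Hif1a itself rose by 0.63 ± 0.13, 0.75 ± 0.13 and 1.00 ± 0.13. Arrdc4, of the same list, rose by 1.87 ± 0.14 with E. coli, further than Hif1a. It was also higher with both than with IFN-γ alone, by 1.03 ± 0.14. With IL-4, 1 of 11 (9.09%, against 5.97% of all genes) rose (Egln1, 0.96 ± 0.16) and 1 fell (Hif1a, by 0.59 ± 0.15), against 4.35%. Bsg and Emb, which bring monocarboxylate transporters to the membrane, rose by 0.55 ± 0.11 and 1.71 ± 0.15 after E. coli, 1.13 ± 0.11 and 0.43 ± 0.16 after IFN-γ, and 1.57 ± 0.12 and 1.11 ± 0.15 after both, where DESeq2 did not call Emb with IFN-γ. Of the 9 tested other glycolysis and glucose genes, which hold this pair, 2, 3 and 3 rose (22.2, 33.3 and 33.3%) and 4, 1 and 2 fell (44.4, 11.1 and 22.2%). DESeq2 gave 2, 2 and 3 higher and 3, 0 and 2 lower. Among the 4 lower with E. coli by edgeR, Slc2a8 fell by 1.70 ± 0.38 and Slc16a7 by 1.48 ± 0.28. Emb fell by 0.89 ± 0.16 with IL-4, as 1 of 7 tested in that list (14.3%, against 4.35% of all genes). In the same comparison 2 of the 7 rose (28.6%, against 5.97%).

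The mitochondrial cycle had smaller medians than the members. Of 16 tested genes of the tricarboxylic acid cycle 2 rose with E. coli (12.5%), and 0 by edgeR with IFN-γ or both (1 at an unadjusted p under 0.05 and 0 by DESeq2 in each), while 3, 3 and 4 fell (18.8, 18.8 and 25%), or 0, 1 and 3 by DESeq2. In both against E. coli alone 6 fell (37.5%, against 15.3% of all genes), or 3 by DESeq2. With each stimulus against unstimulated cells the medians were 0.03, -0.18 and -0.20. Suclg1, a succinyl-CoA ligase subunit, fell in all 3, by 0.41 ± 0.13, 0.61 ± 0.14 and 0.99 ± 0.14, where DESeq2 did not call Suclg1 with E. coli. Among 8 tested genes of the pentose phosphate pathway 1, 2 and 2 rose (12.5, 25 and 25%) and 2, 2 and 3 fell (25, 25 and 37.5%), and with IL-4 4 of 9 fell (44.4%, against 4.35% of all genes): G6pdx by 0.89 ± 0.14, Taldo1 by 0.81 ± 0.12, Pgd by 0.81 ± 0.18 and G6pd2 by 0.93 ± 0.25. With E. coli, DESeq2 gave 2 higher and 1 lower in that list. Of 9 other pyruvate dehydrogenase and carrier genes Mpc1, a subunit of the mitochondrial pyruvate carrier, rose by 0.66 ± 0.11, 0.96 ± 0.11 and 1.25 ± 0.11, and 4 fell with both (44.4%). In that list 0 fell with E. coli by edgeR (0 at an unadjusted p under 0.05 and 0 by DESeq2). With IFN-γ 1 fell (11.1%), or 0 by DESeq2. Of 11 other glycogen genes 1, 2 and 2 rose (9.09, 18.2 and 18.2%), and 0 (0 at an unadjusted p under 0.05 and 0 by DESeq2), 1 and 2 fell by edgeR, where DESeq2 gave 0 with IFN-γ and 1 with both. Ppp1r3b, which brings phosphatase to glycogen, rose by 0.71 ± 0.19, 1.80 ± 0.18 and 2.39 ± 0.17. Of 3 tested genes of gluconeogenesis Pck2 fell by 1.04 ± 0.26 with E. coli and 0.71 ± 0.27 with IFN-γ, the latter not called by DESeq2. With both 0 of them fell by edgeR (0 at an unadjusted p under 0.05 and 0 by DESeq2). The interaction of Pck2 was 1.55 ± 0.39, a call not made by DESeq2. With IL-4, 1 of 5 rose (20%, against 5.97% of all genes), Pck1 by 2.48 ± 0.47.

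Promoter sequence was read as a feature the list of symbols did not use, from RefSeq (GRCm38.p6), in windows of 300 bases from 250 before to 50 after each start. Of the 40 members 39 were matched, and Slc2a3 has no entry. The core of the hypoxia response element (ACGTG or GCGTG, either strand) was in 33 of 39 members (84.6%), counting a gene with at least 1 such window, and in 46.7% of the 27025 genes in the table. By window it was in 43 of 59 (72.9%) for members and in 43.8% of all 32851. No match was found for Gys1, Tpi1, Gpi1, Gbe1, Bpgm and Eno2, which says only that these letters are not in the window. The STAT6 motif, TTC and GAA parted by 4 bases, was in 5 of 39 members (12.8%) against 8.01% of genes, and by window in 5 of 59 (8.48%) against 6.95%. ACGTG also lies inside the E box CACGTG, and the windows were not sorted by base composition.

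Shown are the 150 bases before the start, 5′ to 3′ on the gene's strand, for 6 members of different steps that rose with both, where capitals mark the core on either strand. Pfkfb3 and Ldha hold the full E box. The matches are a description, and binding of any factor was not tested.
Slc2a1 chr4:119108595-119108744 (+ strand): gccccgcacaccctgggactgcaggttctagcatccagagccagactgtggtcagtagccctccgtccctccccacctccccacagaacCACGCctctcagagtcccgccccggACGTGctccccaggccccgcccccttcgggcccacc
Pfkfb3 chr2:11502091-11502240 (− strand): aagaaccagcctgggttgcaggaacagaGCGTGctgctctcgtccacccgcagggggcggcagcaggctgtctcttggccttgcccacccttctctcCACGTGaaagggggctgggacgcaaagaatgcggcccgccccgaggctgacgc
Pgk1 chrX:106186950-106187099 (+ strand): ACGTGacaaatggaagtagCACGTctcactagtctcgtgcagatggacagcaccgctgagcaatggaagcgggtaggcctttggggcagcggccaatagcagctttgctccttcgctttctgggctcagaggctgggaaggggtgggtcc
Pgam1 chr19:41911721-41911870 (+ strand): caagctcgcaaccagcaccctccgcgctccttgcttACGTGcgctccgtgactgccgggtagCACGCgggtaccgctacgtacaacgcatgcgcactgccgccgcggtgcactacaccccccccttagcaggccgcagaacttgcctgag
Ldha chr7:46845654-46845803 (+ strand): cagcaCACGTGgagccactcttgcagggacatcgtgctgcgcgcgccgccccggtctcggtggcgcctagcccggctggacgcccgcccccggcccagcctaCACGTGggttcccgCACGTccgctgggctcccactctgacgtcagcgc
Slc16a3 chr11:120948917-120949066 (+ strand): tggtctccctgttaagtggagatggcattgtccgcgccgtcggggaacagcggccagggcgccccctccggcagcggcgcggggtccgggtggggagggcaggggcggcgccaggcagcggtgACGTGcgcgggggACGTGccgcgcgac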

How the data were processed

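The methods describe CEL-Seq2 libraries, and the labels mention a CEL-Seq library and an RNASeq experiment without naming their samples. Whole-number counts per Ensembl gene (GRCm38, Ensembl 97) were deposited; the methods and labels name TopHat2 2.1.0, STAR 2.7.2a, fastp 0.20.1 and HTSeq 0.6.1, without a mode for strand. In the first layout 21.1 to 39.4% of reads fell on no gene or on several, and the IL-4 files hold no such lines. Symbols were matched through GENCODE M21 (98.3 and 99.7% of genes). Each layout was fitted on its whole gene table in R 4.3.3 with edgeR 4.0.16 (filterByExpr, TMM, quasi-likelihood test, 2-sided), with Benjamini-Hochberg adjustment over all genes tested and 3 libraries a group. The interaction is the effect of E. coli with IFN-γ less that without it. Standard errors were worked back from the test, as the size of the log2 fold change over the square root of F, and are approximate. The calls were tested on simulated data, whose outcome is not given here. Corrected counts assume that identifiers are drawn evenly from all that 6 bases allow. Counting intervals are exact (Clopper-Pearson, 95%) and cover counting error only. Copies are other transcripts with at least 95% identity over at least 200 bases.

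All members were to be accounted for, with values in every library for those called with a log2 fold change of at least 1 in size and for the most abundant isozyme of a step, and at most 4 called genes named from any other list. The members and lists were chosen with earlier results of these data known. Alternatives were DESeq2 1.42.0, its size factors in edgeR, no filter, at least 10 counts in every library, a factor of 2, only the groups compared, the corrected counts, a replicate block and leaving out each library. A library is taken as 1 replicate, since the labels do not say how many mice it holds. Of the promoter motifs searched, 1 is not reported here.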

Additional observations from a re-analysis of the deposited data

Results flagged for a closer look

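For 6 of 32 members, against 2.04% of all genes below 0, a test of the difference itself found the effect of E. coli lower with IFN-γ than without it. The effect with IFN-γ less that without it, on the log2 scale, was -1.46 for Tpi1, -1.40 for Pfkl, -0.96 for Slc2a1, -0.92 for Pgk1, -0.67 for Gapdh and -0.62 for Slc16a3. Tpi1, Pgk1, Gapdh and Slc16a3 reached at least 62.1% of the identifier ceiling in some library, and Slc2a1 and Pfkl at most 24.1%. Tpi1, Pfkl and Pgk1 kept their calls with any of the 12 libraries left out, while Slc16a3 lost its call in 8 of 12 such refits, Gapdh in 7 and Slc2a1 in 6, and the count fell to 3 in some.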

How the results depend on the processing

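Each library was left out in turn: called changes of single members kept their direction and side of the threshold in 820 of these refits and dropped below it in 68. The members called higher ranged from 14 to 16 with E. coli, 25 to 26 with IFN-γ, 27 to 27 with both and 0 to 13 with IL-4, and those lower from 2 to 3, 1 to 1, 1 to 2 and 0 to 1. They ranged from 3 to 7 higher in both against IFN-γ (0 to 0 lower), 25 to 26 in both against E. coli (0 to 0 lower) and 21 to 27 in IFN-γ against E. coli (0 to 1 lower), with 0 to 1 above 0 and 3 to 7 below 0 in the interaction. With DESeq2, 140 of 142 single changes stayed called, 6 members were higher with IL-4, and 0 were lower in IFN-γ against E. coli (edgeR 1, and 1 by DESeq2 at an unadjusted p under 0.05). Of all genes, DESeq2 called 696 of 10556 higher with IL-4 and 861 of 9883 lower in IFN-γ against E. coli. Without a filter, 7 members were higher and 1 lower with IL-4, and 1 lay above 0 in the interaction. All genes then gave 915 higher and 719 lower of 25056 with IL-4, and 314 of 21505 above 0 in the interaction. Asking for at least 10 counts in every library, which removes scarce genes from the test, gave 0 lower with IFN-γ, 1 lower with both, 5 higher with IL-4 and 0 lower in IFN-γ against E. coli. Shares over all genes were then 15.9, 25.8, 6.62 and 13.4%, in the same order. Asking for a factor of 2, a stricter call, gave 7 higher and 1 lower with E. coli, 1 lower with both, 1 higher in both against IFN-γ, 16 in both against E. coli, 13 in IFN-γ against E. coli and 2 below 0 in the interaction. For all genes these were 3.54, 6.81, 13.1, 2.21, 7.62, 6.4 and 0.89%, in the same order. Fitting only the groups compared, on fewer libraries, gave 1 lower with both, 3 higher in both against IFN-γ and 0 lower in IFN-γ against E. coli. In that fit all genes gave 2297 of 9324, 447 of 8768 and 1256 of 9222. Counts corrected for the ceiling gave 10 higher and 1 lower in both against IFN-γ and 10 below 0 in the interaction. The shares of all genes were 6.56, 6.32 and 2.41%.

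A block for replicate numbers 1 to 3 gave 12 higher and 1 lower in both against IFN-γ, where all genes gave 740 higher and 690 lower of 9456. It changed no other count of calls by a factor over 1.5, and the 60 single calls made without it held. Correlations of same-number pairs ran from -0.05 to 0.57, with 6 of 9 over 0.1, among them all 3 of E. coli with both. Each stimulated library of the first layout was also matched to its closest library in each other stimulated group. Of these 18 matches, 10 were to the same number. Since 3 pairs lay below 0.1 and the labels name no shared animal, the numbers were not taken as pairs. In both against E. coli the block gave 26 higher and 0 lower, as without it. The same 9 libraries with no block, an alternative chosen after seeing the data, gave 0 lower in IFN-γ against E. coli. Per kilobase in place of CPM, the log2 ratio of Pfkp to Pfkl in unstimulated d to f turned to -0.62 and that of Pfkfb3 to Pfkfb4 in unstimulated a to c to -0.49, through the exon lengths. Beyond what a stricter call or fewer genes and libraries bring about, the cause was not tested. No scaling moved the median of all genes by more than 0.03. Depth limits the scarce members: Slc16a1, Pdk2, Aldoc and the untested isozymes rest on few counts.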
